A study of Homo sapiens with 4 samples.

Results

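The insulin-like growth factor (IGF) system was examined here through 9 genes, the soluble IGF-binding proteins IGFBP1 to IGFBP7 and the receptors IGF1R and IGF2R, out of 58365 rows of the expression table. They were chosen by gene symbol, not by a rule on measured values, and each symbol had 1 row. Earlier results of these data were known when they were chosen. The libraries came from H1, an established human embryonic stem cell line, kept for 2 days in Custom mTeSR1 medium with activin A at 40 ng/ml and BMP4 at 50 ng/ml, the first step of hematopoietic differentiation. The labels and the methods text give the pair of concentrations to the factors in opposite order. Of the 4 libraries, 2 received DMSO and 2 received IWP2, an inhibitor of Porcupine, the enzyme that Wnt proteins need for secretion. The IWP2 dose is not given in the sources used here, and no group without activin A and BMP4 is part of the comparison. The study used it to ask what depends on Wnt signaling when pluripotent cells turn into mesoderm.

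IGF1 and IGF2 are secreted growth factors that signal through the tyrosine kinase IGF1R, mainly to PI3K and AKT. IGF2R carries no kinase, takes IGF2 up for degradation and sorts lysosomal enzymes. The binding proteins hold IGFs outside the cell, prolong their life or keep them from the receptor, and proteases release the ligand again. IGF signaling supports the self-renewal of human pluripotent stem cells, whose media hold insulin.

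Values are FPKM, sequenced fragments scaled to transcript length and library size, which allow levels of different genes to be compared. FPKM summed to between 616418 and 653850 per library, 13831 to 13926 genes reached 1 FPKM, and the read depth behind them is unknown. Across genes, log2 values correlated at r = 0.97 between the DMSO libraries and 0.98 between the IWP2 libraries, against 0.93 to 0.94 between groups. Transcripts of known Wnt targets checked the labels, and 8 of 10 fell with IWP2 while 0 rose, with SP5 at 53.2 and 47.0 FPKM in DMSO and 0.379 and 0.363 FPKM in IWP2. Without either IWP2 library 5 of the 10 were called. All 10 primitive streak and mesoderm markers found in the table fell, and their summed FPKM went from between 1193 and 1516 to between 154 and 176. Of 8 pluripotency markers, 5 rose and 1, TDGF1, fell, and the summed FPKM went from between 1282 and 1453 to 2623 in both IWP2 libraries. POU5F1 was the largest part of that sum, at 751 and 571 FPKM in DMSO and 1854 and 1844 FPKM in IWP2. Of 6 definitive endoderm markers tested, 5 fell (summed FPKM 1918 to 2307 in DMSO, 126 to 137 in IWP2). CER1 made up most of the DMSO sum (1612 and 2048 FPKM). SOX17, which was not called, made up most of the IWP2 sum (79.7 and 94.9 FPKM, against 155 and 104 FPKM in DMSO). Among endothelial and blood markers 3 of 4 tested fell (64.8 to 68.9 against 40.1 to 42.3), with GATA1 at 0 in every library. KDR made up most of these sums (53.2 and 60.4 FPKM in DMSO, 38.6 and 35.7 FPKM in IWP2). Among trophoblast and amnion markers 2 of 5 tested rose (78.7 to 86.4 against 91.9 to 96.8), with CGB5 at 0. Among neural markers NES rose and OTX2 fell (149 to 156 against 128 to 139), with SOX1 at most 0.0355 FPKM. NES made up most of the neural sums (98.6 and 87.1 FPKM in DMSO, 136 and 125 FPKM in IWP2). The part of this shift in cell state in the results for IGF genes was not tested. In RNA from whole cultures, fewer cells of a type and less RNA per cell cannot be told apart.

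With IWP2 the make-up of the binding proteins changed more than their sum. IGFBP4 and IGFBP6 fell, IGFBP2, IGFBP3 and IGFBP7 rose, and neither receptor passed the test. Of the 9 genes, 8 had a mean of at least 1 FPKM over the 4 libraries and were tested, and 5 of these were called at an adjusted p under 0.05, 3 higher and 2 lower. Over all 14022 genes tested, limma called 15.2%, with 6.75% higher and 8.44% lower. Without IWP2 replicate 1 or 2, only IGFBP3 and IGFBP4 of the members were called, and over all genes 318 or 434 instead of 2129. The median log2 fold change was 0.64 over the 8 tested genes and -0.02 over all genes tested, and the median absolute log2 fold change was 0.91 and 0.22, respectively. The 0.64 lies midway between IGF1R (0.56) and IGFBP5 (0.72). IGFBP5 passed the filter only through the IWP2 libraries, so both medians of the 8 depend in part on a gene kept by its IWP2 values. The labels do not say whether replicates were separate cultures, so the p-values measure only the spread between these libraries, which may be technical.

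**Figure D1:**
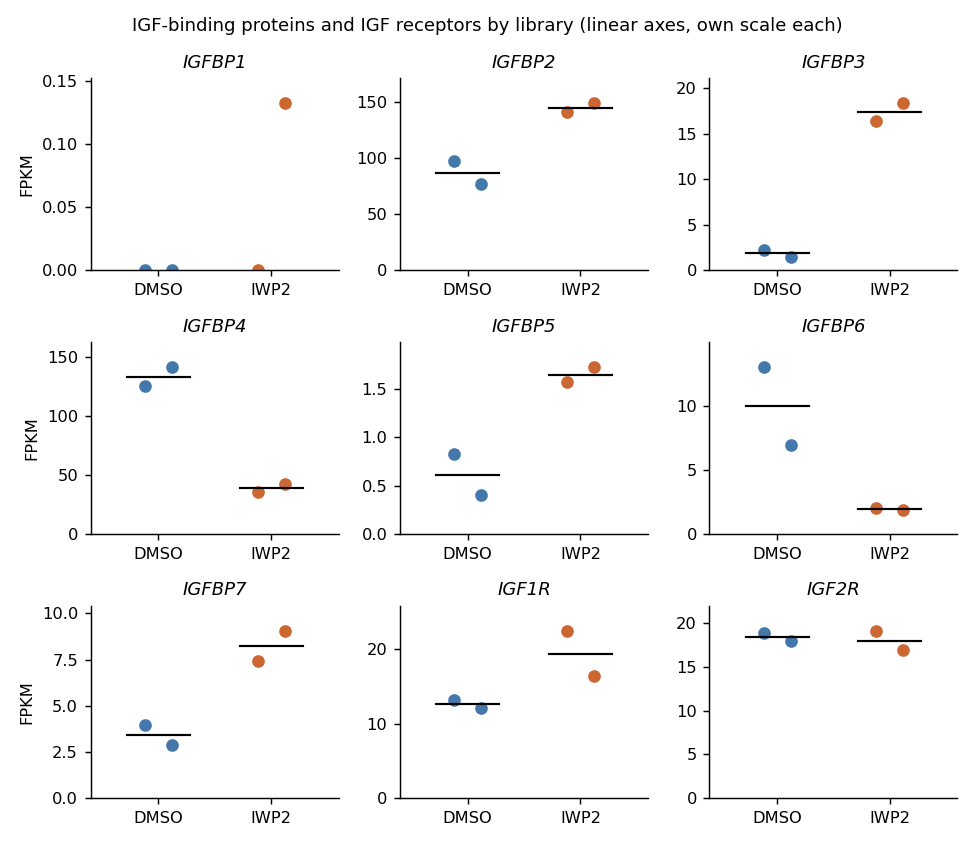
FPKM of each of the 9 genes (vertical axis, linear from 0, own scale per panel) in the 2 DMSO (blue) and 2 IWP2 (orange) libraries, with points for libraries and black lines for group means (none drawn for IGFBP1). The points of the groups overlap for IGFBP1 and IGF2R. The share of all genes whose groups overlap was not counted, so the other panels give no measure beyond their values.

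IGFBP4, which mostly restrains IGF action and has also been described to block Wnt receptors, was the most abundant member in DMSO. It stood at 126 and 142 FPKM in DMSO and at 36.0 and 42.2 FPKM in IWP2. The groups did not overlap, and the mean was 134 ± 11.2 FPKM in DMSO against 39.1 ± 4.38 FPKM in IWP2 (SD, n = 2 each), 3.42-fold lower with IWP2. On the log2(FPKM + 1) scale the change was -1.75 (SE 0.12), with a limma adjusted p of 0.00135. By size of this log2 change IGFBP4 ranked 240 among the 1183 genes called lower, on a scale that compresses the changes of low genes.

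IGFBP6, which binds IGF2 in preference to IGF1, was the other member that fell. Its levels were 13.0 and 6.98 FPKM in DMSO and 2.00 and 1.85 FPKM in IWP2. The DMSO libraries differed from each other by more than the IWP2 libraries did, and both lay above them. The mean was 5.19-fold lower with IWP2, and the log2 change was -1.85 (SE 0.28, limma adjusted p = 0.014). Without DMSO replicate 1 the change was -1.45 and without DMSO replicate 2 it was -2.26, both called. Without IWP2 replicate 1 or 2 the limma adjusted p was 0.123 or 0.113.

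IGFBP2, an abundant binding protein of fetal tissues, rose from a high level. It stood at 97.5 and 76.7 FPKM in DMSO and at 141 and 149 FPKM in IWP2, where it became the most abundant member. Its mean over all libraries exceeded that of 94.9% of the genes tested. The means were 87.1 ± 14.7 and 145 ± 5.50 FPKM (SD, n = 2 each), 1.66-fold higher with IWP2. The log2 change of 0.74 (SE 0.13) had a limma adjusted p of 0.0223, which became 0.143 or 0.15 without IWP2 replicate 1 or 2.

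IGFBP3, the main carrier of IGFs in blood, had the largest fold change among the members. Its levels were 2.18 and 1.49 FPKM in DMSO and 16.4 and 18.3 FPKM in IWP2. Each IWP2 library was far above both DMSO libraries, and the group mean was 9.46-fold higher. The log2 change was 2.70 (SE 0.16, 95% confidence interval 2.29 to 3.12), with a limma adjusted p of 0.00107. IGFBP3 ranked 17 by this log2 change among the 946 genes called higher, on the same scale that compresses low genes.

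IGFBP7, a matrix-associated family member with low affinity for IGFs, stood at 3.95 and 2.85 FPKM in DMSO and at 7.42 and 9.04 FPKM in IWP2. The groups did not overlap, the mean was 2.42-fold higher with IWP2 and the log2 change was 1.07 (SE 0.18, limma adjusted p = 0.0193). The adjusted p was 0.0566 without DMSO replicate 2, 0.111 without IWP2 replicate 1 and 0.147 without IWP2 replicate 2. In GENCODE 29, exons of IGFBP7 share 270 bases with exons of POLR2B on the opposite strand, and the library kit that the labels name does not mark strand. POLR2B had 46.1 and 52.3 FPKM in DMSO and 41.8 and 41.3 FPKM in IWP2, and reads of these bases cannot be told apart between the genes.

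IGFBP5, which binds to extracellular matrix, was low, with 0.826 and 0.400 FPKM in DMSO and 1.56 and 1.72 FPKM in IWP2. Both IWP2 libraries were higher, and it passed the filter on low values only through them. The mean was 2.68-fold higher with IWP2, the log2 change was 0.72 (95% confidence interval 0.16 to 1.28, and 1.35 with a pseudocount of 0.1) and the limma adjusted p was 0.0937, so it was not called. IGFBP1, a binding protein of liver and decidua, was listed at 0 in 3 libraries and at 0.132 FPKM in IWP2 replicate 2, and was not tested.

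**Figure D2:**
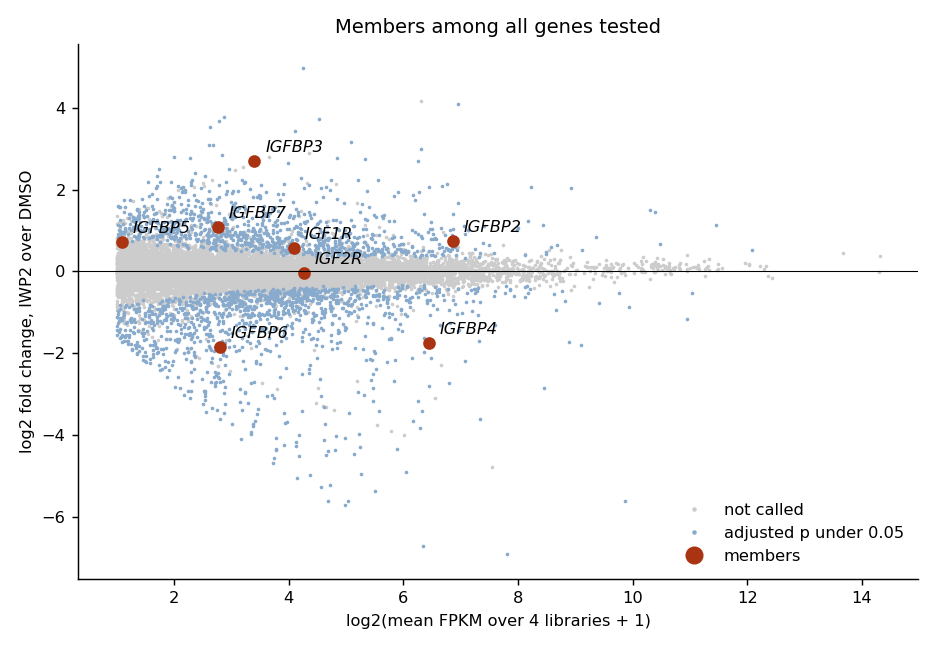
Log2 fold change (IWP2 over DMSO) against log2(mean FPKM + 1) for the 14022 genes tested, grey where not called and light blue where the adjusted p was under 0.05, with the 8 tested members in red. IGFBP3 lies at 2.70, IGFBP4 and IGFBP6 at -1.75 and -1.85, and IGF2R at -0.03.

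In the genome the family sits partly in pairs, and the paired genes did not share a level. The coordinates in the table are those of GRCh38. IGFBP1 (chromosome 7, 45888357 to 45893668, plus strand) and IGFBP3 (45912245 to 45921874, minus strand) face each other tail to tail across 18.6 kb with 0 annotated genes between them, yet IGFBP1 was at or near 0 in every library. IGFBP2 (chromosome 2, 216632828 to 216664436, plus strand) and IGFBP5 (216672105 to 216695525, minus strand) lie in the same arrangement 7.67 kb apart. Both had higher values with IWP2, of which only IGFBP2 was called. IGFBP4 lies on chromosome 17 (40443461 to 40457731), IGFBP6 on chromosome 12 (53097436 to 53102345), IGFBP7 on chromosome 4 (57030773 to 57110385), IGF1R on chromosome 15 (98648971 to 98964530) and IGF2R on chromosome 6 (159969099 to 160113507).

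The sequences just before the start sites of IGFBP4, IGFBP2 and IGFBP3 are shown because these were the members whose mean FPKM changed most. They come from RefSeq (GRCh38.p14), which gave 9 start windows for 7 of the 9 members, all but IGFBP1 and IGFBP7. Positions are counted back from the RefSeq start. Each is written 5′ to 3′ on the strand of the gene and holds no annotated exon base. Of 3 RefSeq starts of IGFBP2, the one at the first base of the gene in the table was used. The IGFBP3 stretch lies within the span that the table gives for the gene and stops 3 bases before the RefSeq start. Capitals mark matches to GGGCGG, the GC box, or its reverse CCGCCC, and to TATAAA, the TATA box, or its reverse TTTATA.

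IGFBP4 (chr17:40443200-40443449, plus strand): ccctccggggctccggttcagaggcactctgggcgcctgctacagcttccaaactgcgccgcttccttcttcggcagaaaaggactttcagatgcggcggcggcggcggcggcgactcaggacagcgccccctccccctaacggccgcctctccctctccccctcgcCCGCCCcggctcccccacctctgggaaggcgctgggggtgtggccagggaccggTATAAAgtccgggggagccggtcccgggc

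IGFBP2 (chr2:216632578-216632827, plus strand): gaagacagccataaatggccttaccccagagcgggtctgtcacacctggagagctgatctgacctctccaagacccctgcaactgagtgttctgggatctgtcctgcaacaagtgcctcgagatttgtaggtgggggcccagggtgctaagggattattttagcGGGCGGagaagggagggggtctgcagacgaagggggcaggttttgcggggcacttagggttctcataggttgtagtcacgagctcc

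IGFBP3 (chr7:45921275-45921522, minus strand): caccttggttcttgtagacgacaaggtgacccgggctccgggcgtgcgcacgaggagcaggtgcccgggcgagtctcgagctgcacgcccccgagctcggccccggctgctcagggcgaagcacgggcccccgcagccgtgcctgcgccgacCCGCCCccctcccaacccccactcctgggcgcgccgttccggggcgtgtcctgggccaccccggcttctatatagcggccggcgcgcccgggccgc

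A TATA box match begins 29 bases before the start of IGFBP4, and TATA box matches were found in 1 of the 9 windows and in 10.7% of 35116 RefSeq windows of the same 250 bases. A GC box match was found in 7 of the 9 windows and in 42.6% of all windows. CTTTGAT or its reverse ATCAAAG, the core that TCF and LEF factors bind, was found in 0 of the 9 windows and in 2.26% of all windows, which says only that these letters are not in these 250 bases. No searched motif overlapped another in the printed stretches. IGFBP3 and IGFBP4 have GC-rich starts (76.0% and 71.6% G or C), against a median of 58.0% over all windows. The window printed for IGFBP2 has 56.8%, and the windows of its other RefSeq starts have 69.2% and 56.4%.

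Summed over the 7 binding proteins, the level was 243 and 230 FPKM in DMSO and 204 and 222 FPKM in IWP2. IGFBP4 made up 51.7% and 61.6% of the sum in DMSO and 17.6% and 19.0% in IWP2. The share of IGFBP2 was 40.1% and 33.3% in DMSO and 69.0% and 67.0% in IWP2. These shares moved in opposite directions and exchanged the leading place, with 1.29 and 1.85 IGFBP4 per IGFBP2 in DMSO and 0.255 and 0.284 in IWP2. IGFBP3 went from 0.895% and 0.649% of the sum to 8.03% and 8.25%. Together IGFBP2 and IGFBP4 held 91.8% and 94.9% in DMSO and 86.6% and 86.0% in IWP2. The shares are a description of the values above and were not tested.

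**Figure D3:**
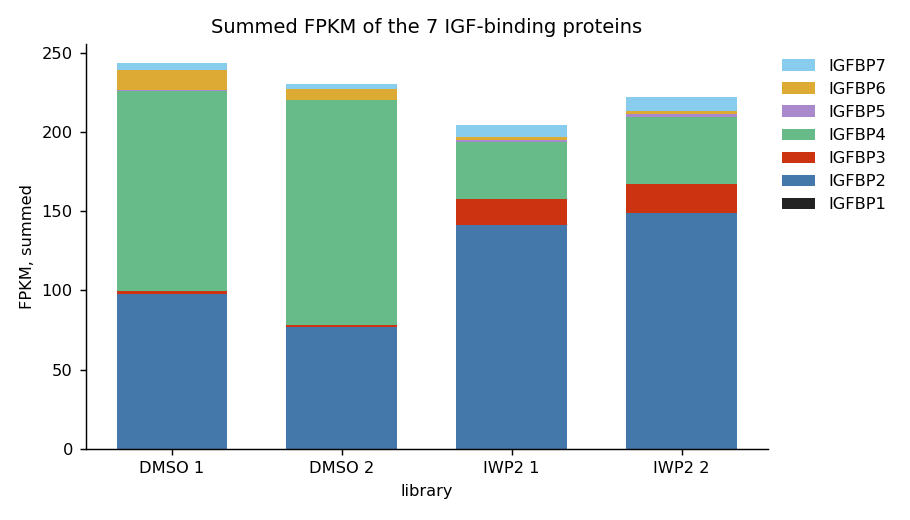
FPKM of IGFBP1 to IGFBP7 stacked (vertical axis, from 0) for each of the 4 libraries. IGFBP4 is the largest part of the DMSO bars, IGFBP2 takes 69.0% and 67.0% of the IWP2 bars, and the whole bars reach 204 to 243 FPKM.

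IGF1R, the signaling receptor for both IGFs, stood at 13.2 and 12.2 FPKM in DMSO and at 22.4 and 16.4 FPKM in IWP2. Both IWP2 libraries were higher, but they differed from each other by more than the nearer one differed from DMSO. The log2 change was 0.56 (95% confidence interval 0.14 to 0.98), with a limma adjusted p of 0.0859, and it ranged from 0.35 without IWP2 replicate 1 to 0.78 without IWP2 replicate 2. IGF2R, the clearance receptor, stood at 18.9 and 17.9 FPKM in DMSO and at 19.1 and 16.9 FPKM in IWP2. These groups overlapped, and the log2 change was -0.03 (95% confidence interval -0.30 to 0.23, limma adjusted p = 0.867), with a sign that turned when DMSO replicate 1 or IWP2 replicate 2 was left out. At an unadjusted p under 0.05, limma would have passed 1 of the 2 receptors.

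The order of levels in DMSO was IGFBP4, IGFBP2, IGF2R, IGF1R, IGFBP6, IGFBP7, IGFBP3, IGFBP5 and IGFBP1. Of these neighbours, only IGF1R and IGFBP6 had overlapping libraries. In IWP2 the order was IGFBP2, IGFBP4, IGF1R, IGF2R, IGFBP3, IGFBP7, IGFBP6, IGFBP5 and IGFBP1. There the libraries of IGF1R and IGF2R overlapped, as did those of IGF2R and IGFBP3.

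The rest of the pathway was read from 50 listed genes, of which 41 were tested and 9 called, 4 higher and 5 lower. Without IWP2 replicate 1 only PIK3R1 was called, and without IWP2 replicate 2 only STC1. Of the 9, PIK3R3 was lost without DMSO replicate 1, and PIK3R3 and GRB14 without DMSO replicate 2. Listed genes outside the 9 were called in their place. The median log2 fold change over the 41 was 0.07, against -0.02 over all genes tested, and 22.0% were called, against 15.2% over all genes tested.

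Of the ligands, IGF1 rose from 3.23 and 3.09 FPKM in DMSO to 6.44 and 6.98 FPKM in IWP2, a 2.13-fold higher mean and a log2 change of 0.89 (limma adjusted p = 0.012). IGF2 had 1.61 and 2.34 FPKM in DMSO and 0.848 and 1.12 FPKM in IWP2, and was not called (mean 2.01-fold lower, log2 change -0.58 and -0.93 with a pseudocount of 0.1, limma adjusted p = 0.144). It passed the filter on low values only through DMSO, with an IWP2 mean of 0.983 FPKM. The ratio of IGF1 to IGF2 was 2.01 and 1.32 in DMSO and 7.6 and 6.24 in IWP2. Insulin (INS) was listed at 0 in all 4 libraries. The insulin receptor INSR had 2.19 and 2.30 FPKM in DMSO and 3.07 and 2.83 FPKM in IWP2 (log2 change 0.28, limma adjusted p = 0.277).

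Among 8 receptor adaptors, GRB10 fell and GRB14 rose, and 6 were not called. Both are known to bind and restrain insulin and IGF receptors. GRB10 went from 51.4 and 44.0 FPKM to 26.5 and 27.2 FPKM (log2 change -0.80), and GRB14 from 4.52 and 3.42 FPKM to 7.37 and 6.93 FPKM (0.72, not called without DMSO replicate 2). The substrates IRS1, IRS2 and IRS4 were among those not called.

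In the arm of PI3K, AKT, mTOR and FOXO, 2 of 18 genes rose and 3 fell. PIK3R1, a regulatory subunit of PI3K, went from 7.65 and 8.32 FPKM to 2.48 and 1.78 FPKM (mean 3.75-fold lower, log2 change -1.53). The kinase AKT1 went from 74.4 and 87.4 FPKM to 45.7 and 38.7 FPKM (-0.92), and PIK3R3, another regulatory subunit, changed by -0.55 with a limma adjusted p of 0.0487 and a call that was lost in 10 of 12 other settings. The transcription factors FOXO1 and FOXO4, which AKT holds out of the nucleus, rose by 0.83 and 1.33. FOXO4 stood at 6.04 and 5.05 FPKM in DMSO and at 14.0 and 17.1 FPKM in IWP2, a 2.80-fold higher mean.

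Among 9 IGFBP proteases and their inhibitors, 4 were tested and 1, STC1, fell. STC1, a secreted inhibitor of the IGFBP4 protease PAPP-A, had 29.03 and 17.4 FPKM in DMSO and 1.86 and 1.64 FPKM in IWP2. Its mean was 13.3-fold lower with IWP2, and its log2 change of -3.10 (SE 0.25, limma adjusted p = 0.00253) was the largest in the lists. The genes of that protease family, PAPPA and PAPPA2, stayed under the filter, at 0.0322 to 0.121 FPKM over all libraries. STC2, which also inhibits PAPP-A, differed more between the DMSO libraries (26.0 and 8.35 FPKM) than between groups. The listed proteases MMP2 and HTRA1 were tested and not called (limma adjusted p = 0.276 and 0.0578). MMP2 had 143 and 103 FPKM in DMSO and 102 and 91.3 FPKM in IWP2. HTRA1 had 1.65 and 2.45 FPKM in DMSO and 4.23 and 3.88 FPKM in IWP2.

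limma called 0 of 3 IGF2 mRNA-binding proteins, with 0 at an unadjusted p under 0.05, and their levels lay between 28.3 and 51.0 FPKM. Of the 4 genes of mannose 6-phosphate sorting, the other task of IGF2R, limma called 0, with 1 at an unadjusted p under 0.05. IGFALS, which joins IGFBP3 in the circulating complex, was under the filter, at 0.0738 to 0.256 FPKM. IGFBPL1, an IGFBP-like gene, had 75.2 and 53.7 FPKM in DMSO and 41.6 and 41.0 FPKM in IWP2, and was not called (limma adjusted p = 0.0721).

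**Figure D4:**
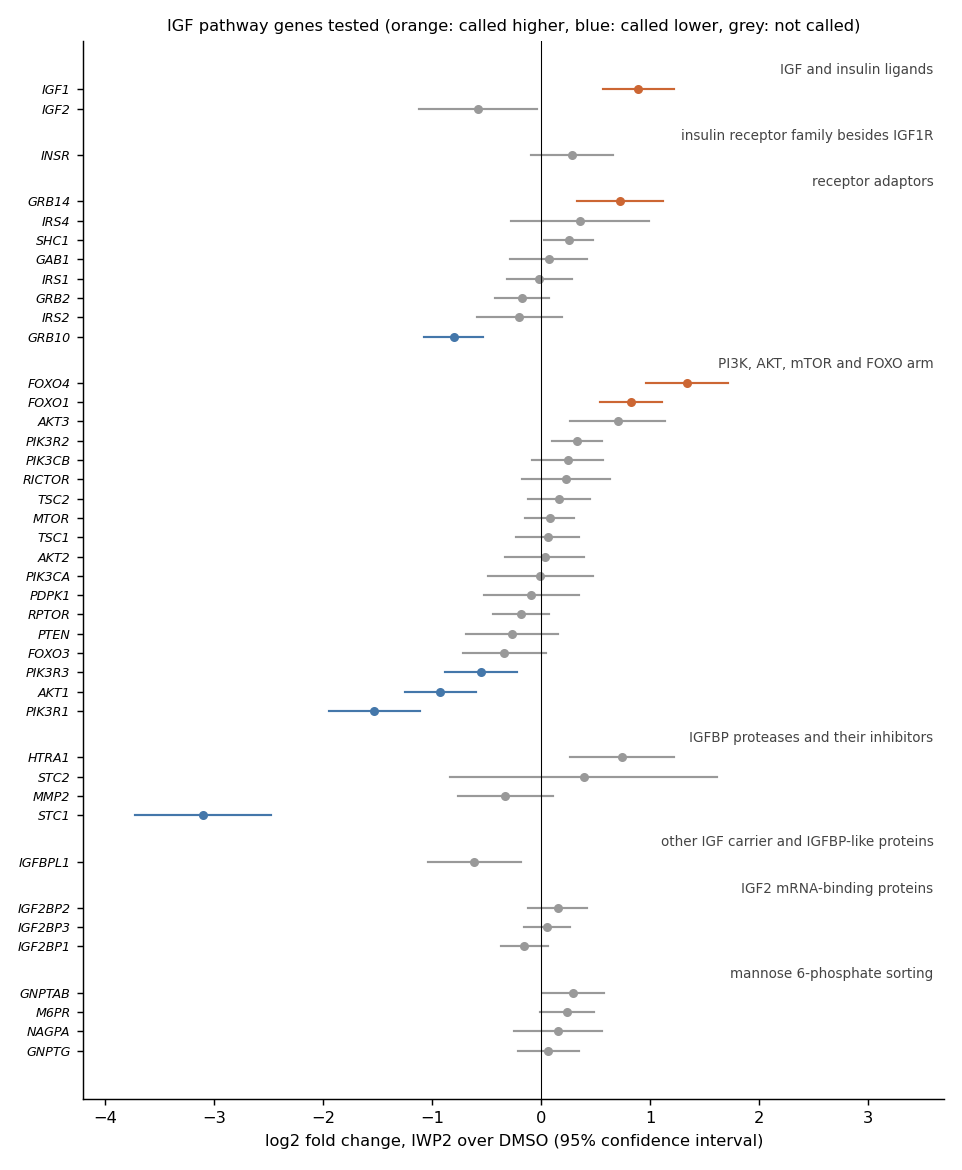
Log2 fold change of IWP2 over DMSO (horizontal axis) with its 95% confidence interval for the 41 pathway genes tested, grouped by role, orange where called higher, blue where called lower and grey where not called. STC1 lies farthest left at -3.10, and FOXO4 farthest right at 1.33.

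For the 3 members with the largest log2 fold changes, the 3 tested genes most alike over the 4 libraries were found by the root mean square difference of log2(FPKM + 1) values centred on each gene's mean. The pseudocount of 1 compresses low genes, so the choice of nearest genes depends on it. Nearest to IGFBP3 were LNCPRESS1, a long noncoding RNA (difference 0.0969), NPPB, a natriuretic peptide (0.119), and CLDN10, a claudin (0.137). NPPB had 19.5 and 19.2 FPKM in DMSO and 126 and 135 FPKM in IWP2. LNCPRESS1 passed the filter only through IWP2, and with a pseudocount of 0.1 its log2 change was 3.84, against 3.19 for IGFBP3 and 2.75 for NPPB. Nearest to IGFBP6 were DUSP6, a phosphatase of ERK (0.0489), FRZB, a secreted Wnt antagonist (0.0604), and the imprinted gene PEG10 (0.0835). All 3 had the higher value in DMSO replicate 1, as IGFBP6 did, with DUSP6 at 42.4 and 25.1 FPKM. The search picks genes that follow the member over these same libraries, so this likeness is no separate finding. FRZB passed the filter only through DMSO. With a pseudocount of 0.1 its log2 change was -2.70, against -1.91 for DUSP6, -1.72 for PEG10 and -2.25 for IGFBP6. Nearest to IGFBP4 were C8orf49 (0.0327), PIK3R5, a regulatory subunit of PI3K (0.0467), and KCNH5, a potassium channel (0.0476). PIK3R5 had 3.79 and 4.03 FPKM in DMSO and 0.402 and 0.541 FPKM in IWP2. These last 3 genes passed the filter only through DMSO, and with a pseudocount of 0.1 the log2 change was -3.87 for C8orf49, -2.82 for PIK3R5 and -2.96 for KCNH5, against -1.77 for IGFBP4.

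**Figure D5:**
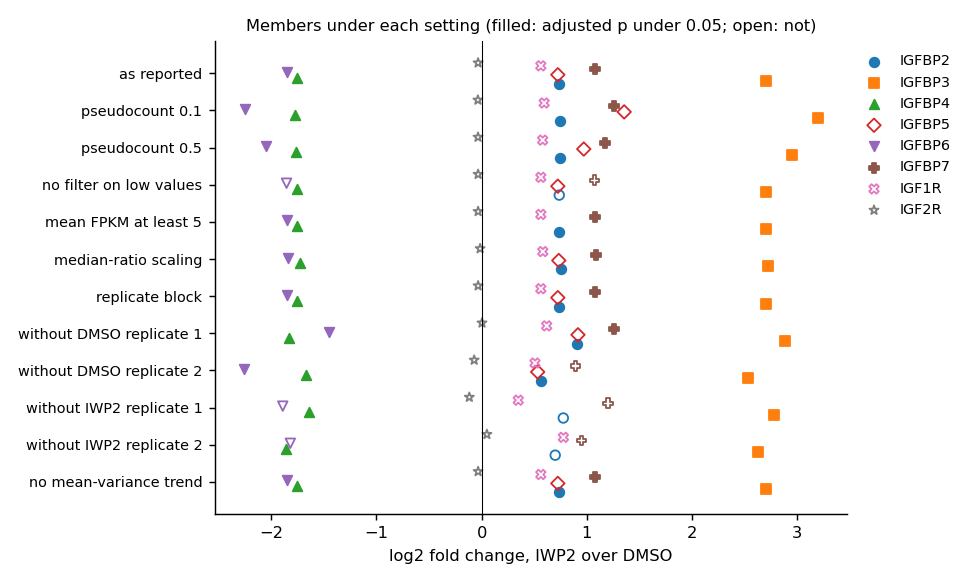
Log2 fold change of IWP2 over DMSO (horizontal axis) for the 8 tested members under the reported fit and 11 other settings (rows), filled where the adjusted p was under 0.05 and open where it was not. IGFBP3 (2.53 to 3.19) and IGFBP4 (-1.86 to -1.64) are filled in every row, while IGFBP2, IGFBP6 and IGFBP7 are open in 3 or 4 rows.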

How the data were processed

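Total RNA of 4 libraries (TruSeq RNA Sample Prep Kit) was sequenced, and the authors deposited 1 table of FPKM values, 1 column per library, not pooled. Columns headed with a minus sign before IWP2 were taken as DMSO and those with a plus sign as IWP2, each with the number in its header. The submitters' processing notes name BWA, Bowtie, RSEM and the build hg19, without versions or roles. The row coordinates, moved to count from 1, equal those of GRCh38 in GENCODE 29 for 97.3% of the 58102 rows whose identifier it holds, so GRCh38 was used. The table header names no unit. FPKM was read from the values and the tools. Read depth is unknown, so no counting interval is given.

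Rows with a mean of at least 1 FPKM over the 4 libraries (14022) were tested as log2(FPKM + 1) with limma 3.58.1 in R 4.3.3 (empirical Bayes with a mean-variance trend, IWP2 against DMSO), with Benjamini-Hochberg adjustment over all of them. A gene was called at an adjusted p under 0.05. Fold changes on this scale understate those of low genes, so ratios of mean FPKM stand beside those of the called members, IGFBP5 and several pathway genes. An exact permutation test of 2 against 2 libraries cannot go below p = 0.333 (two-sided) and was not used. The fit was also run on simulated data with independent noise, where only genes that were not low were changed. That run cannot judge technical replicates or low genes.

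All members are named, as are pathway genes that were called, IGF1, IGF2, INS and INSR whatever their result, and the 3 genes most alike to each of the 3 members with the largest log2 fold change. Wnt targets and cell markers are named only beside their list count. IRS1, IRS2, IRS4, STC2, MMP2, HTRA1, PAPPA, PAPPA2, IGFALS, IGFBPL1 and POLR2B were named after their values were seen. The members and lists were chosen with earlier results of these data known. Alternatives were another pseudocount (0.1, 0.5), filter (none, mean of at least 5 FPKM), scaling, a replicate block, no trend, a fold minimum, and each library left out. Start windows come from RefSeq tables.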

Additional observations from a re-analysis of the deposited data

How the results depend on the processing

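All tested members except IGF2R kept their direction in every setting that gave a value, and IGF2R (-0.03 as reported) ranged from -0.12 to 0.050 on the log2 scale when 1 library was left out. Each group had 2 libraries, and the read depth behind low values is unknown. With no filter on low values, limma called 381 genes of 28917, 2 members (IGFBP3 and IGFBP4) and 0 of 49 pathway genes, of which 16 had an unadjusted p under 0.05, and IGFBP2, IGFBP6 and IGFBP7 had adjusted p of 0.122, 0.112 and 0.113. Leaving out 1 library gave 318 to 1388 genes, 2 to 5 members, 1 to 9 pathway genes and 5 to 8 Wnt targets, the lowest counts each time without an IWP2 library, when the lone IWP2 library is assumed to vary like the others. IGFBP5 fell under the filter without either IWP2 library. A log2 change of at least 1 in addition left 1000 genes, 4 members (without IGFBP2) and 3 pathway genes. The settings themselves change the number of libraries or genes, and the cause of these losses was not tested. PIK3R3, at an adjusted p of 0.0487, was lost in 10 of 12 settings, in 1 of them through the fold minimum alone.

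The replicate numbers are shared by DMSO and IWP2, but nothing in the labels says that they mark a shared culture or day. Deviations from the group means correlated at 0.15 between libraries of the same number. Mitochondrial genes held 9.57% (DMSO) and 8.95% (IWP2) of the summed FPKM in libraries numbered 1. In those numbered 2 they held 6.25% (DMSO) and 6.92% (IWP2). The reason for this difference was not tested. With the replicate block, limma called 1927 genes, 5 members and 8 pathway genes.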
